A study of Mus musculus with 6 samples.

Results

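Transcripts of 10 genes of the brain extracellular matrix were followed in cells sorted from the mouse olfactory bulb: the lecticans Ncan, Bcan, Vcan and Acan, the link proteins Hapln1 and Hapln2, the tenascins Tnc and Tnr, and the membrane proteoglycans Cspg5 and Ptprz1. They were chosen by gene symbol, and each was listed in all 6 libraries, as 10 of 24421 symbols. Gene expression was measured by RNA-seq of total RNA in 3 control and 3 Sox9 KO libraries, each from 1 adult male mouse. The control mice were C57BL/6J (Sox9+/+) and the KO mice were Sox9fl/fl. Mice of both groups received AAV-GFAP-iCre-P2a-TurboRFP in the olfactory bulb, a virus in which the GFAP promoter drives Cre recombinase and the red protein TurboRFP. Cells with TurboRFP were collected by sorting after 4 weeks. Controls thus carried Cre and the reporter but no floxed allele, and the gate selected cells by the activity of the viral promoter rather than by Sox9 itself. The comparison asked how gene expression changed in olfactory bulb astrocytes after deletion of Sox9, a transcription factor of glial cells.

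Lecticans are secreted core proteins that carry chondroitin sulfate chains. Their amino-terminal domain binds hyaluronan, a long sugar polymer made at the cell surface. Link proteins clamp that bond by holding both partners, and tenascins bind the other end of the lecticans, so that all of them together form a mesh around cell bodies and synapses. In the adult brain astrocytes are known as a main source of neurocan (Ncan) and brevican (Bcan), oligodendrocyte precursors of versican (Vcan), and neurons of aggrecan (Acan). Ptprz1 and Cspg5 carry chondroitin sulfate chains as well but span the membrane, where Ptprz1, a receptor tyrosine phosphatase, can bind tenascins and the growth factor pleiotrophin.

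Values are normalized counts, which are reads on a gene divided by 1 size factor per library. A library held between 18242129 and 86906527 reads on genes, 1 read was worth between 0.395 and 1.58 normalized counts, and the ribosomal transcript Rn45s took between 14.2% and 22.4% of the reads. Sox9 stood at 5185, 6562 and 4921 normalized counts in control replicates 1, 2 and 3, and at 52.6, 64.3 and 57.7 in KO replicates 1, 2 and 3. The KO mean was thus 1.05% of the control mean (log2 fold change −6.54, limma adjusted p = 2.5e-09), and the labels of the 6 libraries were borne out by the targeted gene.

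The sorted cells differed between the groups in the markers of several cell types. The summed level of 15 astrocyte markers ran from 569936 to 641636 normalized counts in the control libraries and from 40491 to 52596 in the KO libraries, and all 15 were called lower, where a gene was called at an adjusted p of 0.05 and a fold change of at least 1.5. The sum of 12 microglia markers ran from 162592 to 192877 in control and from 566373 to 681567 in KO, with 11 called higher and none lower. Markers of these 2 cell types thus moved in opposite directions, while those of oligodendrocyte precursors, neurons and oligodendrocytes were lower in KO. Of 10 oligodendrocyte precursor markers all were called lower, with sums between 7883 and 8787 in control and between 732 and 1152 in KO. Of 15 neuron markers 14 were called lower, with sums between 25419 and 32123 in control and between 4068 and 6709 in KO. Of 12 oligodendrocyte markers 11 were called lower, with sums between 39737 and 72701 in control and between 16575 and 27222 in KO. Called lower were also 10 of 10 neuroblast, 8 of 10 olfactory ensheathing cell, 6 of 10 endothelial, 5 of 10 mural, 5 of 10 border macrophage and monocyte and 2 of 10 fibroblast markers, with 0, 0, 2, 0, 3 and 1 of them called higher. Of all tested genes 28.8% were called lower and 22.2% higher. The fibroblast counts do not exceed these shares, and the endothelial and macrophage counts called higher lie near theirs. No marker of any list was at 0 in every library of a group. In such bulk libraries fewer cells of a type and less RNA per cell cannot be told apart, and the part that these markers have in the results on the matrix genes was not tested.

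All 10 matrix genes were lower in KO. Each was called lower, where 28.8% of the 18413 genes tested were called lower and 22.2% higher. For each of the 10, every KO library lay below every control library, a pattern that 34.7% of the tested genes had. Their log2 fold changes (KO over control) lay between −4.65 and −1.68 with a median of −3.27, and the median of all tested genes was −0.07. Bcan had a lower log2 fold change than all but 0.777% of the tested genes, Cspg5 than all but 0.836%, Ptprz1 than all but 1.73%, and Ncan than all but 3.42%. At the other end 19.5% of the tested genes had a lower log2 fold change than Acan.

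**Figure D1:**
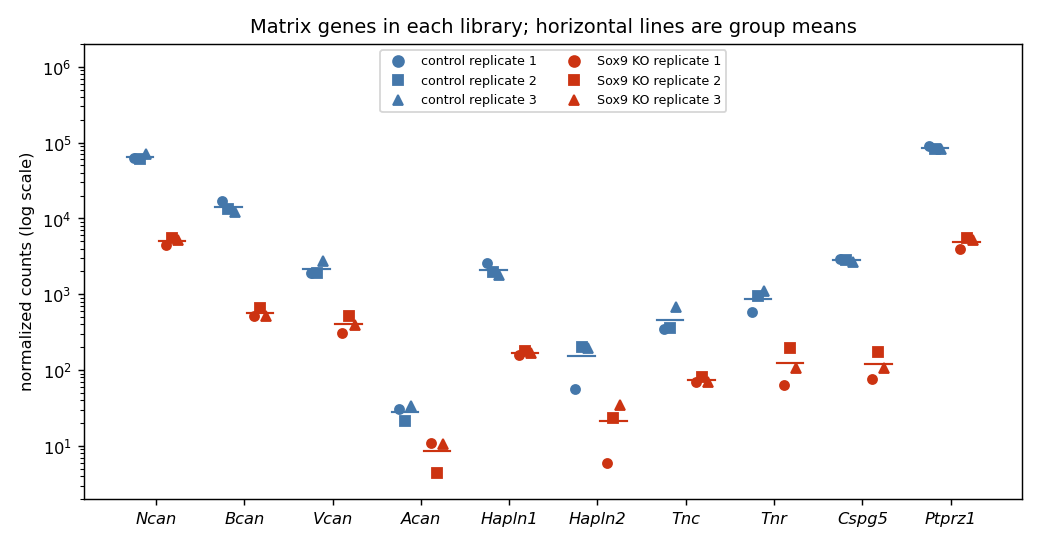
Normalized counts of the 10 matrix genes on a log axis, 1 point per library, with control and KO libraries side by side for each gene and a horizontal line at each group mean. For each gene the 3 KO points lie below the 3 control points, from Ptprz1 and Ncan at the top (control means of 85603 and 64278) to Acan at the bottom (control mean of 28.4).

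The 10 genes lie on several chromosomes, and each lectican gene lies beside a link protein gene. In the RefSeq annotation of GRCm38.p6, Ncan lies 2.22 kb from Hapln4 on chromosome 8, Bcan 18.4 kb from Hapln2 on chromosome 3, Vcan 43.5 kb from Hapln1 on chromosome 13 and Acan 1.93 kb from Hapln3 on chromosome 7, with 0 protein-coding genes between the 2 members of each pair. The changes of neighbours stand side by side as follows. Bcan (log2 fold change −4.65) lies next to Hapln2 (−2.85), Vcan (−2.42) next to Hapln1 (−3.63), Ncan (−3.66) next to Hapln4 (−0.97, adjusted p = 0.083, with overlapping groups), and Acan (−1.68) next to Hapln3 (−4.90). The fitted value of Hapln3 rests on 0, 2 and 1 reads in the KO libraries and depends on the pseudocount. SE values were 0.15 for Bcan, 0.66 for Hapln2, 0.20 for Vcan, 0.15 for Hapln1, 0.11 for Ncan, 0.44 for Hapln4, 0.49 for Acan and 0.56 for Hapln3, and differences within these pairs were not themselves tested.

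Promoter windows of 300 bases, from 250 bases before to 50 bases after a start site in RefSeq (GRCm38.p6), were found for 9 of the 10 genes. Cspg5 had no entry. These windows were searched on both strands for the core letters of the SOX motif, ACAAT. They were also searched on both strands for a longer form, ACAATGG, which contains the core. The core stood in windows of 3 of the 9 genes, Hapln1, Hapln2 and Tnc, and in 31.0% of all 32851 windows. The longer form stood only in the window of Hapln2, and in 3.66% of all windows. A match describes letters and not a bound site. The windows of Ncan and Bcan are printed because these lecticans had the most transcript and the most negative log2 fold change of their class, and that of Hapln2, the neighbour of Bcan, because it alone held the longer form. Capitals mark either form on either strand, and all 3 windows read 5′ to 3′ on the minus strand of the genome.
Ncan, chr8:70120795-70121094: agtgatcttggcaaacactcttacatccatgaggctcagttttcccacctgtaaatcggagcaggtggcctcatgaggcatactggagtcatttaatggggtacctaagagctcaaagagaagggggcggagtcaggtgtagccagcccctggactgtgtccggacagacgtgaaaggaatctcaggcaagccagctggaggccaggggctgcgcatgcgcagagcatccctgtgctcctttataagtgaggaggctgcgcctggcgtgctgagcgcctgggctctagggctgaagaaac
Bcan, chr3:88000307-88000606: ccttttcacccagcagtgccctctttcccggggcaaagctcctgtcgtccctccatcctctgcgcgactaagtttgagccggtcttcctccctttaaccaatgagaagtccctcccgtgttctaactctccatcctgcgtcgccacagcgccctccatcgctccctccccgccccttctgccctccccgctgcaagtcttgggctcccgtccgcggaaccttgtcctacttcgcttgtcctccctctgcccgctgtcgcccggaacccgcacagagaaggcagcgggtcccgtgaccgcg
Hapln2, chr3:88027462-88027761: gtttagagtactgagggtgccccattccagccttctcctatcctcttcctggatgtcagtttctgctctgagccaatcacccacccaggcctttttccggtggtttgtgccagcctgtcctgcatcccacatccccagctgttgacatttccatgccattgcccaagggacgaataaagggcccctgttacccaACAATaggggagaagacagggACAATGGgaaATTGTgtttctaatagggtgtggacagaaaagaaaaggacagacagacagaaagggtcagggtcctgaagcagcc
Neither the Ncan nor the Bcan window held the core. The Bcan window was richer in G and C (64.0%) than the Ncan window (56.7%) and the Hapln2 window (52.0%), beside a median of 52.7% over all windows. Across the windows of the 9 genes the share of G and C ran from 47.3% in one of the 2 overlapping Tnc windows to 74.0% in Acan.

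Gene positions are those of GENCODE M21 on GRCm38. Ncan (chr8:70093085-70120873, minus strand) encodes neurocan, which is trimmed by proteases in the adult brain. It stood at 62481, 60533 and 69822 normalized counts in the control libraries and at 4416, 5606 and 5270 in the KO libraries. The KO mean was 7.93% of the control mean (64278 ± 4899 against 5097 ± 614, SD, n = 3 each). The log2 fold change was −3.66 (SE 0.11, limma adjusted p = 7.1e-09), and the gap between the groups was far wider than the spread within either.

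Bcan (chr3:87987531-88000230, minus strand) encodes brevican, the short lectican of mature perisynaptic matrix. Its values were 17198, 13289 and 12208 in control and 509, 663 and 515 in KO. In KO the mean came to 3.95% of the control mean (14232 ± 2626 against 562 ± 87.0, SD, n = 3 each, log2 fold change −4.65, SE 0.15, limma adjusted p = 8.4e-09). Control replicate 1 was the highest control library for Bcan but not for Ncan.

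Vcan (chr13:89655312-89742509, minus strand) encodes versican, the longest lectican and a component of immature matrix and of the nodes of Ranvier. It had 1901, 1910 and 2714 normalized counts in control and 309.7, 514 and 398 in KO. Both groups spread more widely than for Ncan, and the groups stayed apart (2175 ± 467 against 407 ± 102, SD, n = 3 each, log2 fold change −2.42, SE 0.20, limma adjusted p = 2.1e-06). The KO mean was 18.7% of the control mean.

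Acan (chr7:79053483-79115099, plus strand) encodes aggrecan, the lectican of perineuronal nets and cartilage, and it was close to the limit of detection. Its values of 30.7, 21.3 and 33.1 in control rested on 21, 31 and 21 reads, and those of 10.9, 4.34 and 10.6 in KO on 11, 11 and 7 reads. The log2 fold change was −1.68 (SE 0.49, limma adjusted p = 0.013). Quantile normalization removed this call (log2 fold change −0.82, adjusted p = 0.163) and left those of the other 9 genes in place, while edgeR on the recovered reads gave −1.71 with an adjusted p of 0.026.

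The 4 lecticans did not fall in step, and the makeup of lectican transcripts differed between the groups. Shares were taken of the summed lectican level per kb of exon, which compares genes of different length within a library. Ncan made up 66.5%, 71.2% and 75.2% in the control libraries and 80.5%, 79.6% and 82.5% in the KO libraries. Bcan made up 32.4%, 27.7% and 23.3% in control and 16.4%, 16.7% and 14.3% in KO. The share of Vcan was small but higher in every KO library, at 1.01%, 1.12% and 1.45% in control and 2.81%, 3.63% and 3.10% in KO. Acan never passed 0.192% of the lectican total. Mean shares went from 71.0% ± 4.35 to 80.9% ± 1.45 for Ncan, from 27.8% ± 4.57 to 15.8% ± 1.33 for Bcan and from 1.19% ± 0.23 to 3.18% ± 0.42 for Vcan (SD, n = 3 each). The groups did not overlap for any of the 4 shares, and a two-sided exact permutation test gave p = 0.10 for each, the smallest that 3 against 3 allows.

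**Figure D2:**
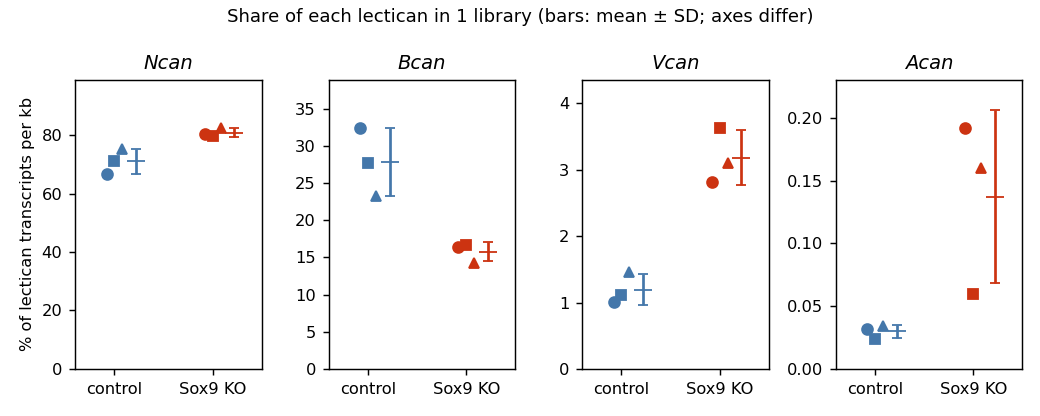
Share (%) of each lectican in the summed lectican level per kb, in 1 panel per gene with its own axis from 0, with circles, squares and triangles for replicates 1, 2 and 3 and a bar for the mean ± SD. The KO points of Ncan lie above and those of Bcan below the control points, with mean shares of 80.9% against 71.0% and 15.8% against 27.8%.

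The same shift was tested as a ratio of 2 genes within a library, which depends on how libraries are scaled only through the pseudocount. In total 6 such pairs were compared, each by subtracting the log2 value of the reference gene from all genes before the fit. The normalized counts of Bcan came to 0.275, 0.220 and 0.175 of those of Ncan in control and to 0.115, 0.118 and 0.0977 in KO, a log2 ratio lower by 0.99 in KO (log2 difference −0.99, SE 0.19, limma adjusted p = 5.9e-06). The ratio of Vcan to Ncan was 0.0304, 0.0315 and 0.0389 in control and 0.0701, 0.0916 and 0.0755 in KO, a log2 difference of 1.24 (SE 0.19, limma adjusted p = 2.4e-07). For Acan against Ncan the log2 difference was 1.99 (SE 0.54, limma adjusted p = 0.00081), on the few reads given above. It was 1.92 with a pseudocount of 0.5 and 2.34 with a pseudocount of 5. In all 3 pairs the groups did not overlap, and the exact permutation p was 0.10. Residuals of the reference gene enter every gene of such a fit, so that its p-values rest largely on the spread of that 1 gene. Adjustment over all genes moved the limma p of Bcan only from 4.2e-06 to 5.9e-06, because most genes differed from Ncan in this fit. A small adjusted p here thus does not set a pair apart from other genes. Relative to the summed markers of oligodendrocyte precursors, the cells known as its main source, Vcan stood at 22.6%, 21.7% and 34.4% in control and 42.3%, 44.9% and 34.6% in KO, where KO replicate 3 barely passed control replicate 3 (exact permutation p = 0.10).

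Hapln1 (chr13:89539796-89611652, plus strand) encodes the link protein of perineuronal nets. It had 2587, 1959 and 1805 normalized counts in control and 158, 179 and 169 in KO. The KO libraries lay within a narrow band, and the KO mean was 7.96% of the control mean (2117 ± 414 against 168 ± 10.5, SD, n = 3 each, log2 fold change −3.63, SE 0.15, limma adjusted p = 3.1e-08). Hapln1 and Ncan thus stood at nearly the same percentage of control.

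Hapln2 (chr3:88021750-88027583, minus strand) encodes the link protein of the nodes of Ranvier, made by oligodendrocytes. Its control values were uneven, at 55.5, 204 and 194, as were its KO values of 5.96, 23.3 and 34.9, which rested on 6, 59 and 23 reads. Replicate 1 was the lowest of both groups, and the groups did not overlap (log2 fold change −2.85, SE 0.66, limma adjusted p = 0.0035, KO mean 14.1% of the control mean). Leaving out 1 library at a time moved this value between −3.45, without control replicate 1, and −2.15, without KO replicate 1, and the call was kept each time.

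Hapln2 was set against the oligodendrocyte markers as well. The lowest control library for Hapln2 was also the lowest for the summed oligodendrocyte markers (39737 against 72701 and 63526 normalized counts in control replicates 2 and 3). In KO the orders differed, with Hapln2 lowest in replicate 1 and the marker sum lowest in replicate 2 (17312, 16575 and 27222 in replicates 1, 2 and 3). As a percentage of that sum Hapln2 stood at 0.140%, 0.281% and 0.305% in control and 0.0344%, 0.141% and 0.128% in KO, and KO replicate 2 lay just above control replicate 1. Against Hapln1 the change of Hapln2 could not be told from an equal one. Their ratio was 0.0215, 0.104 and 0.107 in control and 0.0377, 0.130 and 0.207 in KO (log2 difference 0.78, 95% interval −0.31 to 1.87, limma adjusted p = 0.164). This difference was set by single libraries, at 1.43 without KO replicate 1 (adjusted p = 0.0014) and 0.0197 without control replicate 1.

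Tnc (chr4:63959785-64047015, minus strand) encodes tenascin-C, which marks developing and injured tissue. Its values were 343, 355 and 679 in control and 69.5, 81.3 and 69.9 in KO. Control replicate 3 stood well above the other controls, and all KO libraries were lower (459 ± 191 against 73.6 ± 6.72, SD, n = 3 each, log2 fold change −2.55, SE 0.27, limma adjusted p = 1.5e-05). The KO mean was 16.0% of the control mean.

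Tnr (chr1:159523769-159931729, plus strand) encodes tenascin-R, which binds lecticans in perineuronal nets and is known from oligodendrocytes and their precursors. It stood at 587.5, 936 and 1097 in control and at 64.5, 195 and 108 in KO. Replicate 1 was again the lowest of both groups, and the KO mean was 14.0% of the control mean (log2 fold change −2.92, SE 0.36, limma adjusted p = 5.1e-05). Annotated transcripts on the opposite strand share exon sequence with Tnc and with Tnr, and whether reads were counted by strand is not stated in the sources available here.

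No difference between the tenascins in their change was found. The ratio of Tnr to Tnc was 1.71, 2.64 and 1.61 in control and 0.929, 2.40 and 1.54 in KO, and the groups overlapped. The log2 difference was −0.36 with a 95% interval from −1.20 to 0.48 (limma adjusted p = 0.432), so that a more than 2-fold change of the ratio towards Tnc is within the interval.

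Cspg5 (chr9:110243783-110262576, plus strand) encodes neuroglycan C, a membrane proteoglycan with an EGF-like domain. It had 2955, 2858 and 2670 normalized counts in control, the tightest control group of the 10, and 77.4, 174 and 108 in KO. The KO mean was 4.24% of the control mean (2828 ± 145 against 119.8 ± 49.4, SD, n = 3 each, log2 fold change −4.63, SE 0.24, limma adjusted p = 9.99e-08). The KO libraries differed among themselves by more than 2-fold, and even the highest of them lay far below the lowest control.

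Ptprz1 (chr6:22875502-23052916, plus strand) had the most normalized counts of the 10 genes. It stood at 91167, 82994 and 82648 in control and at 3907, 5576 and 5203 in KO. The KO mean was 5.72% of the control mean (85603 ± 4822 against 4895 ± 876, SD, n = 3 each, log2 fold change −4.14, SE 0.13, limma adjusted p = 8.5e-09). The ratio of Ptprz1 to Cspg5 was 30.9, 29.0 and 31.0 in control and 50.5, 32.0 and 48.2 in KO. All KO ratios lay above the control ratios, but the difference did not pass the test (log2 difference 0.48, 95% interval −0.38 to 1.35, limma adjusted p = 0.278, exact permutation p = 0.10). Without KO replicate 2 it was 0.69, with an adjusted p of 0.021.

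Levels were ordered per kb of exon, since a longer transcript collects more reads. In control Ncan stood at 8934 ± 681 normalized counts per kb and ranked 62 among the 17660 tested genes with a known exon length. Ptprz1 followed at 6009 ± 338 (rank 99) and Bcan at 3502 ± 646 (rank 187), and these 3 did not overlap between libraries. Next came Hapln1 at 359 ± 70.2 and Cspg5 at 281 ± 14.4, neighbours whose means differed by about the SD of Hapln1, and Vcan at 150.4 ± 32.3. The levels of Tnr (67.9 ± 20.2), Hapln2 (63.8 ± 35.0) and Tnc (59.1 ± 24.5) differed by less than their spread, and Acan was last at 3.80 ± 0.83 (all SD, n = 3).

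The order was largely kept in KO. Ncan stood at 708 ± 85.3 per kb (rank 1717), Ptprz1 at 344 ± 61.5 (rank 3437) and Bcan at 138 ± 21.4 (rank 6364), so that the 3 most expressed matrix genes were still the first 3. Hapln1 (28.5 ± 1.78) and Vcan (28.2 ± 7.07) could not be told apart in KO, nor could Cspg5 (11.9 ± 4.91), Tnr (9.52 ± 5.17), Tnc (9.47 ± 0.86) and Hapln2 (9.02 ± 6.15). Ncan and Ptprz1 together held 74.3%, 77.1% and 79.4% of the summed level per kb of the 10 genes in control and 81.7%, 80.6% and 82.9% in KO.

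Within the groups the genes varied in 2 patterns. KO replicate 1 was the lowest KO library for 9 of the 10 genes, all but Acan, and KO replicate 2 the highest for 8. The summed astrocyte markers were also lowest in KO replicate 1 and highest in KO replicate 2. In control, replicate 1 was the highest library for Bcan, Hapln1, Cspg5 and Ptprz1 and the lowest for Vcan, Hapln2, Tnc and Tnr. Control replicate 3 was the lowest for the former 4 genes and the highest for Vcan, Tnc and Tnr, as well as for Ncan and Acan. In control the summed astrocyte markers were highest in replicate 2 and lowest in replicate 3 (624911, 641636 and 569936 in replicates 1, 2 and 3).

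Since astrocyte markers fell together with the matrix genes, each gene was also set against them in the same library. Ncan came to 10.00%, 9.43% and 12.3% of the summed astrocyte markers in control and to 10.9%, 10.7% and 11.5% in KO. Hapln1 came to 0.414%, 0.305% and 0.317% in control and 0.390%, 0.340% and 0.369% in KO. For both genes the groups overlapped, and with the libraries scaled to the marker sum the log2 fold changes were 0.071 for Ncan (limma adjusted p = 0.712) and 0.10 for Hapln1 (adjusted p = 0.636). The overlap was not particular to astrocyte markers. Against the summed neuroblast markers both genes had overlapping groups too (exact permutation p = 0.4 for Ncan and 0.6 for Hapln1). Against oligodendrocyte precursor, oligodendrocyte and neuron markers every KO library lay below every control library for both genes (exact permutation p = 0.1 each).

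Bcan and Cspg5 were lower in KO relative to the summed astrocyte markers as well, but not relative to every single marker. With the normalized counts as deposited, the log2 fold changes of the 15 markers ran from −5.25 to −2.72. Bcan (−4.65), Cspg5 (−4.63) and Ptprz1 (−4.14) lie within that range. Bcan came to 2.75%, 2.07% and 2.14% of the marker sum in control and to 1.26%, 1.26% and 1.13% in KO, a log2 fold change of −0.92 under this scaling (limma adjusted p = 5e-05). Cspg5 came to 0.473%, 0.445% and 0.469% in control and to 0.191%, 0.331% and 0.236% in KO (−0.91, adjusted p = 0.0007). Ptprz1, at 14.6%, 12.9% and 14.5% in control and 9.65%, 10.6% and 11.4% in KO, had a smaller difference that stayed under 1.5-fold (log2 fold change −0.41, adjusted p = 0.037).

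Vcan, Acan, Tnc and Tnr were called higher in KO relative to the summed astrocyte markers, with overlapping groups for Tnr. By point estimate on the deposited scale, Vcan (−2.42), Acan (−1.68) and Tnc (−2.55) had a smaller fall than each of the 15 markers. Tnr (−2.92) did not. The marker with the smallest fall was Slc1a3 (log2 fold change −2.72, SE 0.11). The confidence intervals of Vcan, Acan and Tnc reached below this value, to −2.86, −2.77 and −3.15. Differences from single markers were not tested, so this order is not established. Vcan came to 0.304%, 0.298% and 0.476% of the marker sum in control and to 0.765%, 0.976% and 0.870% in KO (log2 fold change 1.30, limma adjusted p = 1.4e-05). Under this scaling the log2 fold change was 1.80 for Acan (adjusted p = 0.0063), 1.15 for Tnc (0.0019) and 0.80 for Tnr (0.025). Tnr came to 0.0940%, 0.146% and 0.192% of the marker sum in control and to 0.159%, 0.371% and 0.236% in KO, where KO replicate 1 lay below control replicate 3 (exact permutation p = 0.2). Hapln2 did not pass the test (0.77, adjusted p = 0.228). Tnr and Acan were also set against the markers of cells named above as their sources. Against oligodendrocyte precursor markers Tnr had overlapping groups (exact permutation p = 0.7). Against oligodendrocyte markers every KO library lay below every control library for Tnr (exact permutation p = 0.1). Acan had overlapping groups against neuron markers (exact permutation p = 0.4). When the 15 markers were given equal weight, an alternative chosen after seeing the data, the same 2 genes were called lower and the same 4 higher. Sox9 itself had a log2 fold change of −2.83 under scaling to the marker sum and −2.69 at equal weight, beside −6.54 on the deposited scale. Scaling to the marker sum raises the median over all tested genes by 3.54 on the log2 scale, so that 15240 genes were called higher and 242 lower, and it describes a gene against astrocyte markers rather than its level in the sorted cells.

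**Figure D3:**
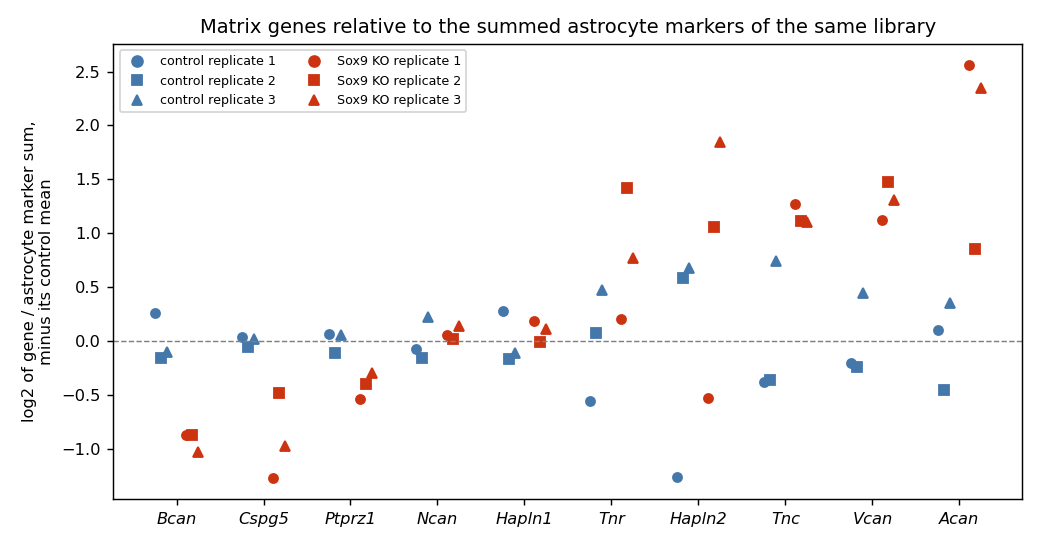
Log2 of each matrix gene over the summed level of 15 astrocyte markers in the same library, minus the mean of the control libraries (vertical axis), with 1 point per library and circles, squares and triangles for replicates 1, 2 and 3. Control and KO points overlap for Ncan, Hapln1, Tnr and Hapln2, KO points are lower for Bcan, Cspg5 and Ptprz1, and KO points are higher for Tnc, Vcan and Acan.

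**Figure D4:**
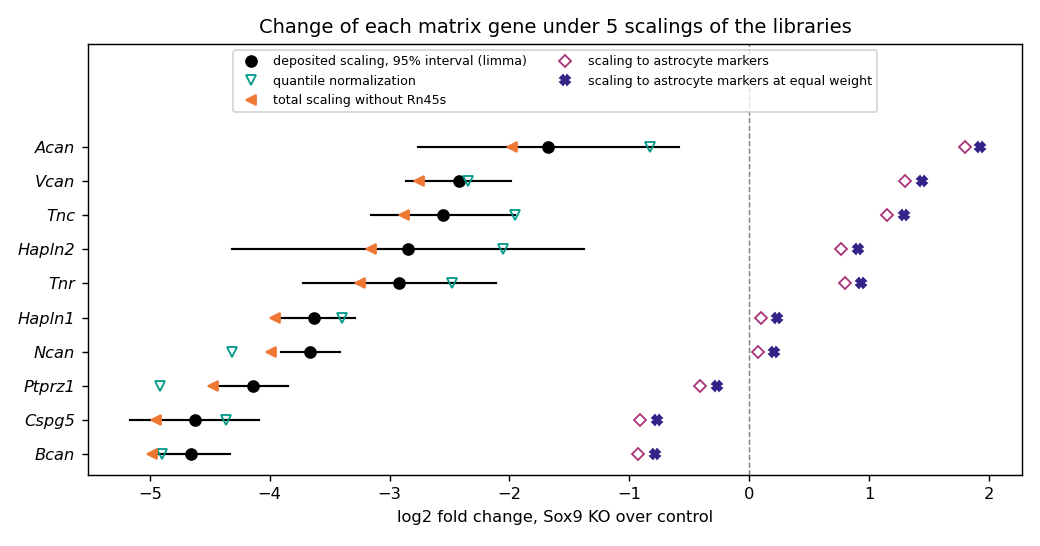
Log2 fold change (KO over control, horizontal axis) of each of the 10 matrix genes, with black points and 95% intervals for the deposited scaling and 1 symbol for each of 4 other scalings of the libraries. The black points lie below 0 for all 10 genes, from Bcan at −4.65 to Acan at −1.68, quantile normalization and scaling to totals without Rn45s stay below 0, and scaling to astrocyte markers leaves only Bcan, Cspg5 and Ptprz1 below 0.

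Of the other genes of these families, Hapln3 and Tnxb fell. Hapln3, a link protein of tissues outside the brain, stood at 67.2, 41.3 and 41.0 normalized counts in control and at 0, 0.790 and 1.52 in KO, the latter from 0, 2 and 1 reads, and was called lower (limma adjusted p = 2.7e-05). Tnxb, a tenascin of connective tissue, went from 26.8 ± 3.54 to 8.11 ± 2.79 (SD, n = 3 each, log2 fold change −1.65, SE 0.46, adjusted p = 0.0096). Its values rested on 20, 33 and 18 reads in control and on 5, 26 and 6 in KO. Hapln4, the link protein of inhibitory synapses, stood at 98.8 ± 14.8 against 57.1 ± 32.8 and did not pass the test. Tnn, the fourth gene of this list, had a mean under 1 and was not tested.

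Among 18 other proteoglycan core proteins 15 were called lower and 0 higher, with a median log2 fold change of −1.89. The shares over all tested genes were 28.8% lower and 22.2% higher. The 3 most abundant were syndecans, membrane proteoglycans with heparan sulfate chains. Sdc2 went from 2878 ± 299 to 315 ± 50.9 (SD, n = 3 each, log2 fold change −3.20, limma adjusted p = 4e-08) and Sdc4 from 8478 ± 985 to 3225 ± 482 (−1.40, adjusted p = 4.5e-06). Sdc3 had overlapping groups, at 11750 ± 1102 and 10858 ± 1644 (−0.12, adjusted p = 0.419). Dcn and Lum, small proteoglycans of fibroblasts, were the other ones not called. Bgn (−0.90, limma adjusted p = 0.0011) and Fmod (−1.22, adjusted p = 0.036), small proteoglycans as well, were called lower. Dcn, Lum, Bgn and Fmod are named here after their values were seen.

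Of 14 hyaluronan genes tested 5 were called lower and 3 higher, and the median was −0.38, where 28.8% of all tested genes were called lower and 22.2% higher, so that these counts lie near the background. Among those called higher were Hexa, which encodes part of a lysosomal enzyme that trims sugars from several polymers (3011 ± 147 to 13278 ± 1114, SD, n = 3 each, log2 fold change 2.14, limma adjusted p = 3.6e-08), and Cd44, a hyaluronan receptor of immune cells and glia (831 ± 313 to 3162 ± 748, 1.98, adjusted p = 8.6e-05). Of the 12 microglia markers given above 11 were called higher as well, and their part in this list's values was not tested. The 5 called lower included Has1, which makes hyaluronan, and Hyal1 and Hyal3, which belong to the family that cuts it. Has1 rested on 13, 15 and 10 reads in control and on 3, 2 and 3 in KO. The other Has genes of the list, Has2 (−0.26) and Has3 (0.89, limma adjusted p = 0.0503), were not called, nor was Hyal2 (−0.51). Has3 was higher in every KO library than in every control library. These Has and Hyal genes are named after their values were seen.

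Of 21 enzymes tested that build chondroitin sulfate chains 6 were called lower and 7 higher, with a median log2 fold change of 0.07. The share called lower was that of all tested genes (28.8%), and the share called higher lay somewhat above theirs (22.2%). The most abundant, Chst11, a chondroitin sulfotransferase, fell from 4583 ± 267 to 916 ± 147 (SD, n = 3 each, log2 fold change −2.33, limma adjusted p = 9.5e-08). Dse, which turns chondroitin into dermatan sulfate, rose from 684 ± 137 to 2375 ± 206 (1.81, adjusted p = 2e-06). Chsy1, a chain polymerase, differed by less than 1.5-fold (1964 ± 55.5 against 1391 ± 125, −0.50, adjusted p = 0.0013). The split of this list moved with the scaling, from 7 called higher to 11 under quantile normalization and 4 when libraries were scaled to their totals.

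Of 14 lectican proteases and their inhibitors 11 were called lower and 2 higher, with a median of −2.36. Of all tested genes 28.8% were called lower and 22.2% higher. Adamts1, a protease that cuts lecticans, went from 3860 ± 676 to 946 ± 367 (SD, n = 3 each, log2 fold change −2.10, limma adjusted p = 6.4e-05). Of the inhibitors of the list, Timp1 (log2 fold change −4.44), Timp3 and Timp4 (−3.44) were called lower and Timp2 higher. Timp1 and Timp4 are named here after their values were seen. Timp3 fell from 20902 ± 2377 to 2242 ± 434 (−3.23, adjusted p = 4.2e-08), and Timp2 rose from 7447 ± 681 to 23580 ± 2046 (1.66, adjusted p = 3.1e-07).

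Of 20 receptors and ligands of these matrix molecules 12 were called lower and 3 higher, with a median of −1.79, beside 28.8% lower and 22.2% higher over all tested genes. Ptn, which encodes pleiotrophin, the ligand of Ptprz1, fell from 18021 ± 2128 to 4029 ± 774 (SD, n = 3 each, log2 fold change −2.17, limma adjusted p = 5.1e-07). Itgav, an integrin subunit that can take part in tenascin receptors, was at 10545 ± 555 and 10378 ± 606 (−0.02, adjusted p = 0.832). Sdc3 is on this list too.

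**Figure D5:**
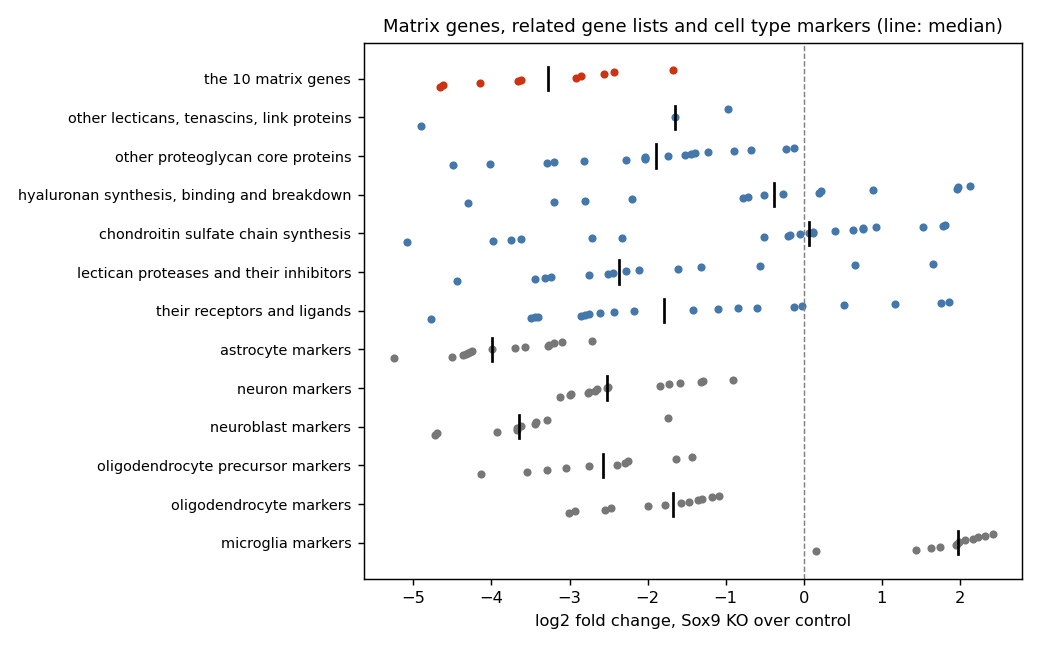
Log2 fold change (KO over control, horizontal axis) of each tested gene among the 10 matrix genes, 6 related lists and the markers of 6 cell types, 1 point per gene with a line at each median. All points of the 10 matrix genes lie below 0, with a median of −3.27, the chondroitin sulfate synthesis genes lie on both sides with a median of 0.07, and the microglia markers lie above 0.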

How the data were processed

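RNA-seq was deposited as 1 table per mouse, with 1 signal value per gene symbol. The authors mapped reads to mm10 with STAR 2.5.0a, counted them per gene and normalized them with DESeq2 1.20.0. Sources used here state neither the gene annotation nor whether strand was used. Although the tables are named RPM, 100% of the values in each library were whole multiples of 1 step within 0.01 read, so they are read counts divided by a size factor. All deposited columns were used (0 left out).

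After removal of genes whose mean was under 1, the other 18413 were compared in R 4.3.3 by limma 3.58.1, taking log2 of the normalized count plus a pseudocount of 1 and a variance trend, and p-values were adjusted by Benjamini-Hochberg over all of them. Fold changes are on that scale, which understates the change of low genes. Genes were called at an adjusted p of 0.05 and 1.5-fold. Recovered reads were also tested with edgeR 4.0.16 (quasi-likelihood test, TMM) and DESeq2 1.42.0. Ratios of 2 genes were fitted after subtracting the reference gene in each library. Levels per kb used union exon lengths of GENCODE M21 (GRCm38), in which 95.6% of the symbols were found; coordinates of genes come from it, and neighbours and promoter windows from RefSeq. Limma was tested on simulated data.

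The 10 genes and all lists were chosen with earlier results of these data known. The genes named were the 10, Sox9, the 3 most abundant of each related list and all of the short family list; others are said to be chosen after their values were seen. A gene that this rule names is not reported here. Alternatives were other pseudocounts, filters, scalings and tools, a replicate block, and leaving out each library. Each library is 1 mouse. Limma p-values combine a gene's spread between mice with a variance trend over all genes, and do not rest on the former alone. Without the trend the limma adjusted p of Ncan was 9.1e-05 in place of 7.1e-09, and all 10 genes were still called lower.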

Additional observations from a re-analysis of the deposited data

How the results depend on the processing

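Over the 10 genes and 19 alternatives, 176 of 190 log2 fold changes kept their direction, and 173 also kept their call. The call of Acan was lost under quantile normalization and that of Ptprz1 under both scalings to astrocyte markers. The 14 reversed values came from those scalings, to the marker sum and at equal weight: Ncan 0.071 and 0.21, Vcan 1.30 and 1.44, Acan 1.80 and 1.93, Hapln1 0.10 and 0.24, Hapln2 0.77 and 0.91, Tnc 1.15 and 1.29, Tnr 0.80 and 0.94. By construction both move all genes up, with 242 genes called lower and 15240 higher under the sum and 191 and 15377 at equal weight, and 2 matrix genes called lower and 4 higher under each. The deposited scaling gave 5299 genes lower and 4090 higher. Totals without Rn45s gave 6597 and 2630 (71.5% of calls lower), totals 6191 and 2936, and quantile normalization 4100 and 5369 (43.3% lower), with shifts of the median log2 fold change of −0.31, −0.23 and 0.27. edgeR on recovered reads called 5000 lower and 4340 higher, DESeq2 5100 and 3994, and each called all 10 matrix genes lower, as did every fit without 1 library. Under quantile normalization 1 gene of the short family list and 3 of the hyaluronan list were called lower, and 11 chondroitin synthesis genes and 1 protease or inhibitor were called higher. With totals 3 genes of the short family list and 7 of the hyaluronan list were called lower. Called higher with totals were 4 chondroitin synthesis genes and 1 protease or inhibitor. The cause of these moves was not tested.

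The log2 difference between Hapln2 and Hapln1 was 1.04 with a pseudocount of 5, past the threshold, and between 0.0197 and 1.43 without 1 library at a time. That between Ptprz1 and Cspg5 was between 0.37 and 0.69. Without division by length the share of Ncan among lecticans was higher in KO by 4.35 percentage points and that of Vcan by 3.95. Without 1 library at a time the differences in share lay between 7.68 and 12.02 points for Ncan, between −14.3 and −9.68 for Bcan and between 1.76 and 2.17 for Vcan.

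Over all tested genes, deviations of libraries with the same replicate number were nearly uncorrelated (correlations of −0.05, −0.01 and −0.01 for numbers 1, 2 and 3). With 3 libraries per group this cannot show whether some genes varied with the number. With the number as a replicate block 5227 genes were called lower and 4048 higher, all 10 matrix genes stayed lower, and the log2 difference between Hapln2 and Hapln1 had an adjusted p of 0.068. In the fit with the block the limma adjusted p was 0.00012 for Hapln2 and 8.8e-06 for Tnr, beside 0.0035 and 5.1e-05 without it. Depth limits Acan and Hapln2 most, each with fewer than 10 reads in a KO library.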
